A study of Homo sapiens with 31 samples.

Results

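A set of 9 genes known as targets of the coactivator YAP or as responders to mechanical load was followed in Caco-2, an established line from a human colorectal tumour whose cells form an enterocyte-like layer when kept long in culture. They are ANKRD1, CCN1, CCN2, NPPB, THBS1, TAGLN, LATS2, AMOTL2 and AJUBA. Each was taken from the row of the deposited array table whose probe set names that gene and no other, and all 9 were found, each with 1 such row, among 22395 measured genes. Before the 6 h exposure, cells spent 21 days on static Transwell inserts, which are porous membranes hanging in a well, or in a microfluidic gut-on-chip device perfused at 100 µL/h. RNA was measured on 31 Affymetrix whole-transcript arrays, and all levels below are log2 values after RMA, so that a difference of 1 is a doubling.

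The arrays fell into 8 groups, named by culture system and by what the cells received on day 21. On Transwell inserts these were the TiO2-control medium (4 arrays), TiO2 nanomaterial at 50 µg/mL (3 arrays), the ZnO-control medium (4 arrays) and ZnO nanomaterial at 10 µg/mL (4 arrays). In the chip they were the TiO2-control medium, TiO2 at 100 µg/mL, the ZnO-control medium and ZnO at 80 µg/mL, with 4 arrays each. The suspended doses were set apart so that modelled deposited doses would match, per the labels' protocols, and each control medium held its dispersion solution without nanomaterial. The flow gave a shear stress of about 0.002 dyne/cm2 and was stopped in the chip during the 6 h of exposure. All groups came from the same tumour-derived line at passage 29 to 45, and the labels name no second cell type. The labels do not say whether replicates are separate cultures, so p-values measure the spread between these arrays, which may be technical.

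The epithelial label held in the data: the mean of 10 epithelial markers lay between 8.88 and 9.33 on every array, and array medians over genes between 4.235 and 4.397. Of 9 measured fibroblast and smooth muscle markers 5 to 7 lay below all array medians in each group, as did all 3 endothelial markers and 2 of 3 immune markers. The first principal component carried 42.4% of the variance over genes and separated chip from Transwell arrays. 3 chip arrays stood apart. On the third component (4.45%) chip TiO2 replicate 4 scored -14 against 16.7 to 20.1 for the other chip TiO2 arrays, and chip TiO2-control replicate 4 scored 7.81 against -19.4 to -14.9 for the other arrays of its group. Each thus lay on the side of the other label, and the main differences that rest on them are given with and without both. Chip ZnO replicate 1 scored -24.5 on that component against 4.27 to 25.5 for the other chip ZnO arrays, and it had the highest score of all arrays on the first (53.5, against 36.4 to 41.8 in its group). The main differences of the chip ZnO group are likewise given with and without it. Levels, orders of group means and spreads use all arrays.

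YAP and its paralog TAZ (encoded by WWTR1) are transcriptional coactivators that bind TEAD factors on DNA. The Hippo kinases LATS1 and LATS2 phosphorylate them and so keep them out of the nucleus, while cell spreading, actin tension and open cell borders favour their nuclear entry. Several of their target genes encode secreted matricellular proteins, and others encode negative regulators of YAP itself. In the intestine the pathway is best known from regeneration after injury, and in a dense, differentiated enterocyte layer it is usually restrained.

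TEAD factors bind the core motif GGAATG, and the promoters that hold it close to the start site are shown here because they belong to the genes whose levels are described below. RefSeq windows of 300 bases (250 before and 50 after an annotated start, GRCh38.p14) were at hand for 6 of the 9 genes, and GGAATG stood on either strand in 6 of their 8 windows, AMOTL2 and AJUBA having 2 windows each of which 1 lacked it. Among all 35116 windows the motif was present in 14%. CCN2 held 3 copies before its start, at positions -169, -104 and -95, which was the case for 0.0826% of all windows, and ANKRD1 held 2, at -220 and -128 (2 or more copies in either direction stood in 1.37% of windows). THBS1 had 1 copy at -46, AJUBA 1 at -59 and AMOTL2 1 on the other strand at -69, while the LATS2 copy lay 9 bases after the start. AP-1 sites (TGANTCA) were searched as well and were found in ANKRD1 alone, at -195, against 7.71% of all windows, and the CArG box bound by SRF was found in none of the 6 genes, against 1.29%. CCN1, NPPB and TAGLN had no window, so their promoters were not searched for any of these motifs. A match is a string of letters and was not tested as a binding site. The stretches run 5′ to 3′ on the gene's strand and end at the start site for ANKRD1 (chr10:90921088-90921337, minus strand), CCN2 (chr6:131951373-131951622, minus strand) and THBS1 (chr15:39580829-39581078, plus strand). For AMOTL2 (chr3:134374499-134374528, minus strand) and AJUBA (chr14:22976884-22976913, minus strand) they cover the 30 bases around the motif. Capitals mark GGAATG or its reverse complement.
ANKRD1: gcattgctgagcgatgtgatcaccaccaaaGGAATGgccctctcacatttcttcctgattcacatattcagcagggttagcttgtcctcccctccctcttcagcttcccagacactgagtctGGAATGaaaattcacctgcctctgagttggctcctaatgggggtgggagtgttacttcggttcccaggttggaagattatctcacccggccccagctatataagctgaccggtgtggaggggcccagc
CCN2: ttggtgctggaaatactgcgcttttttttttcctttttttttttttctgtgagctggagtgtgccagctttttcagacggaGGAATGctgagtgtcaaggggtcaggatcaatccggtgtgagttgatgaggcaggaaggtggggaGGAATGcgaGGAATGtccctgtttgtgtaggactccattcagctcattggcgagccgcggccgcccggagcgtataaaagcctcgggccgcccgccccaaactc
THBS1: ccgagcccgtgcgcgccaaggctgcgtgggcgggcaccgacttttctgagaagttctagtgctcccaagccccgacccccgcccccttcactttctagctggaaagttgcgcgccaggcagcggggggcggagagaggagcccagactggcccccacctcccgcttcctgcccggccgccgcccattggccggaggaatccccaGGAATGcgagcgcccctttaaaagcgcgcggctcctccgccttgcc
AMOTL2: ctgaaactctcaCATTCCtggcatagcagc
AJUBA: gggaagttggctGGAATGaagccaaagcaa

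Culture system was the main axis along which most of the 9 genes differed, with AMOTL2 an exception. In control media, averaged over both, 8 of the 9 genes were higher in the chip than on Transwell inserts and AJUBA was lower, all past an adjusted p of 0.05 (limma, Benjamini-Hochberg over all genes). The background in this comparison was large: 14.6% of all genes were called higher and 18.9% lower. The median difference of the 9 genes was 1.03, and that of all genes was near 0. Without both TiO2-set chip arrays numbered 4 the 9 calls held, with ANKRD1 at 2.79, CCN1 at 2.55 and NPPB at 2.10. Over all 16 chip and 15 Transwell arrays, exposed arrays included, ANKRD1, CCN1, NPPB and LATS2 did not overlap between the systems, with every chip array above every Transwell array; 2.91% of all genes were ordered that way and 3.8% the opposite way. These are bulk RNA levels, in which fewer cells expressing a gene and less RNA per cell cannot be told apart.

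**Figure D1:**
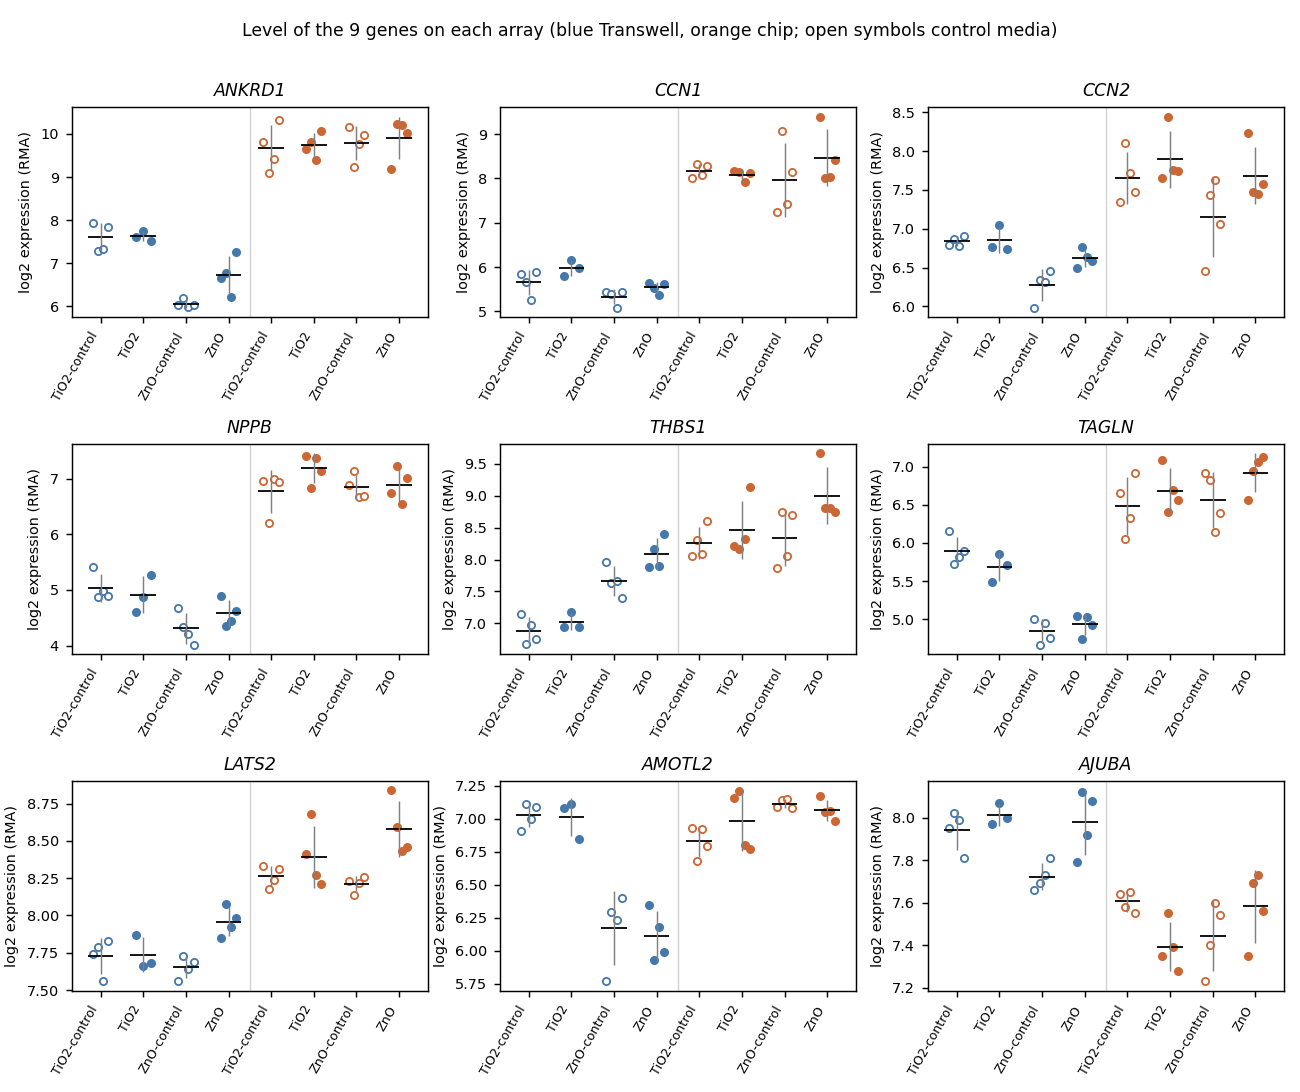
RMA log2 level of each gene on each array (vertical axis) in the 8 groups (horizontal axis), with Transwell arrays in blue, chip arrays in orange, open symbols for control media, a black line at the group mean and a grey bar of 1 SD either side. ANKRD1, CCN1, NPPB and LATS2 separate the systems on every array, while AMOTL2 is low only in the Transwell ZnO-control and ZnO groups and AJUBA is lower in the chip.

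ANKRD1 encodes an ankyrin repeat protein of the nucleus and the sarcomere and is among the most responsive YAP targets. On Transwell inserts its level was 7.93, 7.29, 7.34 and 7.85 in TiO2-control medium and 6.02, 6.18, 5.98 and 6.02 in ZnO-control medium. In the chip it was 9.81, 9.09, 9.43 and 10.33 in TiO2-control medium and 10.16, 9.24, 9.76 and 9.98 in ZnO-control medium. All 8 chip control arrays thus lay above all 8 Transwell control arrays, and on inserts the control media formed separate sets that the chip did not show. The difference between systems was 2.90 ± 0.18 (SE), a fold of 7.46, with an adjusted p of 2.16e-13 (limma). Exposed arrays held the same places, with 7.6, 7.75 and 7.52 after TiO2 and 6.65, 6.78, 6.22 and 7.26 after ZnO on inserts, and 9.19 to 10.22 over the 8 exposed chip arrays. Ordered by group mean, the 4 chip groups came first with means from 9.66 to 9.91 and no neighbours separated by more than their SDs. The gap of 2.04 to the Transwell TiO2 group exceeded the larger SD of 0.53, and so did the steps from Transwell TiO2-control to ZnO (0.88) and from ZnO to ZnO-control (0.68).

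CCN1 and CCN2 (formerly CYR61 and CTGF) encode secreted matricellular proteins that bind integrins, and both are standard readouts of YAP activity. CCN1 stood at 5.84, 5.66, 5.26 and 5.88 in TiO2-control medium and at 5.43, 5.4, 5.08 and 5.44 in ZnO-control medium on inserts. In the chip it stood at 8.02, 8.32, 8.07 and 8.27 and at 7.24, 9.06, 7.42 and 8.15 in the same media. The systems did not overlap, and the chip ZnO-control arrays were spread widely (SD 0.83). The difference was 2.57 ± 0.19, a fold of 5.94 (adjusted p = 1.19e-11, limma). The lowest of all 16 chip arrays (7.24) lay above the highest of the 15 Transwell arrays (6.17). Exposed arrays had means of 5.98 ± 0.18 (SD, n = 3) after TiO2 and 5.55 ± 0.12 after ZnO on inserts and of 8.09 ± 0.12 and 8.47 ± 0.64 in the chip. In the order of group means the break of 1.99 between chip ZnO-control and Transwell TiO2 exceeded the SDs, as did the steps of 0.32 from Transwell TiO2 to TiO2-control and of 0.21 from Transwell ZnO to ZnO-control.

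CCN2 showed a smaller difference of 0.85 ± 0.15, a fold of 1.8 (adjusted p = 3.03e-05, limma). Its level was 6.79, 6.87, 6.78 and 6.91 on inserts against 7.34, 8.1, 7.72 and 7.47 in the chip in TiO2-control medium. In ZnO-control medium it was 5.98, 6.34, 6.32 and 6.46 on inserts against 6.46, 7.44, 7.63 and 7.06 in the chip. Within each medium no chip array lay below an insert array, but over all arrays 15 of 16 chip arrays exceeded every Transwell array, the exception being chip ZnO-control replicate 1. The gap in group means between chip ZnO-control (7.15 ± 0.51, SD, n = 4) and Transwell TiO2 (6.85 ± 0.17, n = 3) was within the larger SD. After exposure the means were 7.89 ± 0.37 (TiO2) and 7.68 ± 0.37 (ZnO) in the chip and 6.62 ± 0.11 (ZnO) on inserts. The lowest group was Transwell ZnO-control at 6.27 ± 0.2, and the steps up from it to Transwell ZnO (0.34) and on to TiO2-control (0.22) exceeded the SDs.

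NPPB encodes the precursor of B-type natriuretic peptide, a hormone that heart muscle releases under stretch. In TiO2-control medium its level was 5.41, 4.87, 4.98 and 4.9 on inserts and 6.95, 6.2, 7.0 and 6.94 in the chip. In ZnO-control medium it was 4.67, 4.34, 4.21 and 4.02 on inserts and 6.88, 7.14, 6.67 and 6.69 in the chip. No chip array reached down to an insert array in either medium. The difference was 2.13 ± 0.14, a fold of 4.38 (adjusted p = 6.33e-13, limma). The insert levels in ZnO-control medium lay around the array medians over genes (4.235 to 4.397), so how far they stood above background is not known. By group mean the chip TiO2 group was highest at 7.19 ± 0.26 (SD, n = 4), followed by the other chip groups between 6.77 and 6.88, and a step of 1.73 led down to Transwell TiO2-control. Below that came Transwell TiO2 at 4.91 ± 0.33, ZnO at 4.58 ± 0.24 and ZnO-control at 4.31 ± 0.27, with steps of 0.33 and 0.27 that barely exceeded the larger SD, whereas Transwell TiO2-control and TiO2 were not separated.

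THBS1 encodes thrombospondin-1, a matrix glycoprotein that binds integrins and activates latent TGF-beta. In TiO2-control medium it was 7.14, 6.67, 6.97 and 6.75 on inserts and 8.06, 8.31, 8.09 and 8.6 in the chip. In ZnO-control medium it was 7.96, 7.64, 7.66 and 7.39 on inserts and 7.86, 8.74, 8.06 and 8.69 in the chip. The sets were apart in the first medium and overlapped in the second, where chip replicate 1 (7.86) lay below insert replicate 1 (7.96). Averaged over the media the difference was 1.03 ± 0.16, a fold of 2.04 (adjusted p = 4.44e-06, limma). THBS1 was the only one of the 9 genes whose Transwell level was higher in both ZnO-set groups (means 7.66 and 8.09) than in both TiO2-set groups (6.88 and 7.03). The chip groups followed above them at 8.27 ± 0.25 (TiO2-control), 8.34 ± 0.44 (ZnO-control), 8.46 ± 0.46 (TiO2) and 9.0 ± 0.44 (ZnO). Neighbours in this order were separated by more than their SDs between chip ZnO and chip TiO2 (0.54), between Transwell ZnO and ZnO-control (0.42) and between Transwell ZnO-control and TiO2 (0.64), but not between the lowest chip and the highest Transwell group. The step of 0.54 includes chip ZnO replicate 1 at 9.66, where the rest of its group lay between 8.74 and 8.8. It also includes chip TiO2 replicate 4 at 9.14, where the rest lay between 8.17 and 8.32. The step is not given without these arrays.

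TAGLN encodes transgelin, an actin-bundling protein of smooth muscle that SRF and its MRTF cofactors control. It was 6.15, 5.72, 5.82 and 5.9 on inserts and 6.66, 6.05, 6.32 and 6.91 in the chip in TiO2-control medium. In ZnO-control medium it was 5.01, 4.67, 4.95 and 4.75 on inserts and 6.92, 6.82, 6.14 and 6.39 in the chip. The chip arrays of both media covered nearly the same range, whereas the insert arrays did not overlap between media. The difference averaged over media was 1.15 ± 0.13, a fold of 2.22 (adjusted p = 2.23e-08, limma). By group mean the chip groups came first (ZnO 6.92 ± 0.25, TiO2 6.68 ± 0.29, ZnO-control 6.57 ± 0.36, TiO2-control 6.48 ± 0.38) with no separated neighbours. On inserts TiO2-control (5.90 ± 0.19), TiO2 (5.68 ± 0.18) and ZnO (4.94 ± 0.14) were each separated from the group before, and ZnO-control (4.85 ± 0.16) was not. TAGLN is also a smooth muscle gene. Of the 9 measured fibroblast and smooth muscle markers none was higher in the chip in this comparison, while LUM (-0.98 ± 0.18) and PDGFRB (-0.88 ± 0.14) were lower. Over all genes 14.6% were higher and 18.9% lower, so the share of lower markers was near the background. The LUM difference was more negative in ZnO-control medium, by -1.29 (adjusted p = 0.0517, limma), or -1.64 (0.00342) without both TiO2-set chip arrays numbered 4. MYH11 passed as higher without both TiO2-set chip arrays numbered 4 (0.31, adjusted p = 0.0304, against 0.33 and 0.0506 with all arrays), and 2 were lower. The part of these markers in the TAGLN result was not tested.

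The remaining 3 genes encode regulators of YAP that are themselves YAP targets or partners of its kinases. LATS2, the kinase that phosphorylates YAP, lay between 7.56 and 7.83 on the 8 Transwell control arrays and between 8.14 and 8.33 on the 8 chip control arrays. The systems were apart with a narrow spread, and the difference was 0.54 ± 0.07, a fold of 1.46 (adjusted p = 7.17e-07, limma). The highest LATS2 mean was that of chip ZnO at 8.58 ± 0.19, followed by chip TiO2 at 8.39 ± 0.21, and on inserts the ZnO group (7.96 ± 0.1) stood apart both from the lowest chip group above it (by 0.26) and from Transwell TiO2 below it (by 0.22). AMOTL2, an angiomotin-like scaffold of cell junctions that holds YAP in the cytoplasm, was 6.91, 7.11, 7.0 and 7.09 on inserts and 6.93, 6.68, 6.92 and 6.79 in the chip in TiO2-control medium. In ZnO-control medium it was 5.77, 6.29, 6.23 and 6.4 on inserts and 7.09, 7.14, 7.15 and 7.08 in the chip. Its mean difference of 0.37 ± 0.09 (fold 1.3, adjusted p = 0.00104, limma) averaged a clear gap in ZnO-control medium with none past the threshold in TiO2-control medium. After exposure its means were 6.99 ± 0.23 (TiO2) and 7.06 ± 0.08 (ZnO) in the chip and 7.01 ± 0.14 and 6.11 ± 0.19 on inserts, so that 6 groups lay between 6.83 and 7.12 and the Transwell ZnO and ZnO-control groups lay 0.66 or more below them. AJUBA, a LIM-domain protein of adherens junctions that binds LATS kinases, lay between 7.66 and 8.02 on the Transwell control arrays and between 7.23 and 7.65 on the chip control arrays. It was the single gene of the 9 that was lower in the chip, by -0.31 ± 0.07 (fold 1.24, adjusted p = 0.00081, limma), and 14 of all 16 chip arrays lay below every Transwell array. Its Transwell means ran from 7.72 (ZnO-control) to 8.01 (TiO2) and its chip means from 7.39 (TiO2) to 7.6 (TiO2-control), and the step of 0.12 between the systems exceeded the larger SD of the groups beside it.

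The comparison of systems by single medium gave the same direction for 8 genes in all 4 media. In TiO2-control medium 7 genes were called higher and 1 lower (background 9.42% higher and 13.5% lower), and in ZnO-control medium 8 and 1 (12.3% and 14.9%). After TiO2 the counts were 7 higher and 1 lower (background 7.92% and 10.2%), and after ZnO 8 and 1 (13.3% and 16.5%). After exposure the suspended doses differed between the systems as given above. Arrays of the systems did not overlap for 6 genes higher and 1 lower in TiO2-control medium (background 9.92% and 13.4%), for 7 and 1 in ZnO-control medium (12.6% and 15.7%), for 7 and 1 after TiO2 (12.7% and 14.9%) and for 8 and 1 after ZnO (13.2% and 16.2%). Each of these contrasts uses arrays of the averaged comparison or of the same systems, so they are no independent repeats.

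**Figure D2:**
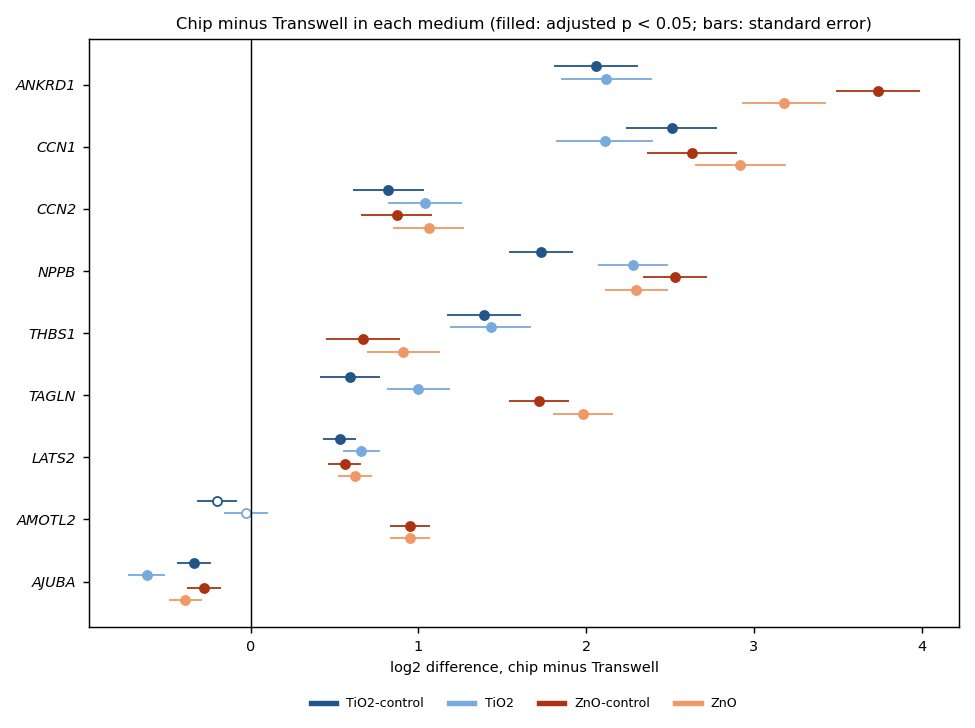
Log2 difference, chip minus Transwell (horizontal axis), of each gene in each of the 4 media, with bars of 1 standard error and filled points where the adjusted p was below 0.05. ANKRD1, TAGLN and AMOTL2 differ more in the ZnO-set media (red and orange) than in the TiO2-set media (blue), whereas CCN2 and LATS2 keep nearly 1 value in all 4.

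ANKRD1 differed by 2.06 in TiO2-control medium, 2.12 after TiO2, 3.74 in ZnO-control medium and 3.18 after ZnO, each with an SE of 0.25 or 0.27. LATS2 stayed within a narrow band, from 0.53 to 0.66, and CCN2 ran from 0.82 to 1.06. CCN1 differed by 2.11 to 2.92 and NPPB by 1.73 to 2.53. AMOTL2 differed by 0.95 ± 0.12 both in ZnO-control medium (adjusted p = 7.71e-07, limma) and after ZnO (5.46e-07), but did not pass in TiO2-control medium (-0.20, -0.44 to 0.05 at 2 standard errors either side) or after TiO2 (-0.03, -0.30 to 0.24). Some calls lay near the threshold and were lost when 1 array was left out. TAGLN in TiO2-control medium (0.59 ± 0.18, adjusted p = 0.0166) did not pass without chip TiO2-control replicate 4 (0.45, adjusted p = 0.0852), replicate 1 of that group (0.0564), Transwell TiO2-control replicate 2 (0.0584) or both TiO2-set chip arrays numbered 4 (0.0873). THBS1 in ZnO-control medium (0.67 ± 0.22, adjusted p = 0.0218) did not pass without Transwell ZnO-control replicate 4 (0.0785), chip ZnO-control replicate 2 (0.0971) or chip ZnO-control replicate 4 (0.0896). AJUBA in ZnO-control medium (-0.28 ± 0.1, adjusted p = 0.0372) did not pass without Transwell ZnO-control replicate 2 (0.0569), 3 (0.0694) or 4 (0.102), or without chip ZnO-control replicate 1 (0.159) or 2 (0.0814). Fitted on the compared groups alone, TAGLN in TiO2-control medium (0.59, adjusted p = 0.0536) and AJUBA in ZnO-control medium (-0.28, 0.108) did not pass either. Without both TiO2-set chip arrays numbered 4, ANKRD1 differed by 1.84 in TiO2-control medium and 2.01 after TiO2, CCN1 by 2.48 and 2.10, and NPPB by 1.68 and 2.29, all still past the threshold. Without chip ZnO replicate 1 all 9 genes still passed after ZnO, with ANKRD1 at 3.42, CCN1 at 2.62, TAGLN at 2.10, CCN2 at 0.88 and THBS1 at 0.69 (adjusted p = 0.0166).

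The ZnO-control and TiO2-control media, both without nanomaterial, gave different levels of 5 of the 9 genes on Transwell inserts. ANKRD1, TAGLN, AMOTL2 and NPPB were lower and THBS1 was higher in ZnO-control medium, where 3.76% of all genes were called lower and 2.88% higher. ANKRD1 was lower by -1.55 ± 0.25 (fold 2.94, adjusted p = 0.000244, limma), with all ZnO-control arrays at 6.18 or less and all TiO2-control arrays at 7.29 or more. TAGLN was lower by -1.05 ± 0.18 (fold 2.07, adjusted p = 0.000569) and AMOTL2 by -0.86 ± 0.12 (fold 1.81, adjusted p = 8.96e-05). In each of these 3 genes the 4 ZnO-control arrays lay below the 4 TiO2-control arrays, as in 9.35% of all genes (8.33% were ordered the opposite way), and the calls held without any single array. NPPB (-0.73 ± 0.19, adjusted p = 0.0196) did not pass without Transwell TiO2-control replicate 1 (0.0772) or Transwell ZnO-control replicate 3 (0.0559) or 4 (0.0706). Its ZnO-control levels, 4.02 to 4.67, lay around the array medians over genes (4.235 to 4.397). THBS1 (0.78 ± 0.22, adjusted p = 0.0303) did not pass without any 1 of 6 arrays, namely Transwell TiO2-control replicates 2 (0.0952), 3 (0.0569) and 4 (0.0803) and Transwell ZnO-control replicates 1 (0.115), 2 (0.0633) and 3 (0.0637). CCN2 was lower on all 4 ZnO-control arrays but did not pass (-0.56 ± 0.21, adjusted p = 0.107), while it passed with array weights (0.0272), with the compared groups alone (0.0168) and with Transwell arrays alone (0.00325). Each control medium was run beside its own nanomaterial, so medium and set of arrays cannot be told apart.

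In the chip none of the 9 genes differed between the control media by limma (background 0.058% of genes), with 2 of the 9 and 2171 of all genes at an unadjusted p below 0.05. ANKRD1 differed by 0.12 ± 0.25 there, TAGLN by 0.08 ± 0.18, NPPB by 0.07 ± 0.19 and THBS1 by 0.07 ± 0.22. AMOTL2 was higher on all 4 ZnO-control arrays, 7.08 to 7.15 against 6.68 to 6.93, without passing (0.29 ± 0.12, adjusted p = 0.432; 1.71% of all genes were ordered that way), and CCN2 had -0.51 ± 0.21 (0.4). The contrast between the systems was tested as an interaction, for which 1.69% of all genes were called higher and 1.05% lower. It passed for ANKRD1 (1.68 ± 0.35, adjusted p = 0.00836), AMOTL2 (1.14 ± 0.17, 0.000496) and TAGLN (1.13 ± 0.25, 0.014), in each of which the ZnO-control minus TiO2-control difference was more negative on inserts. NPPB (0.80 ± 0.27, adjusted p = 0.11) and THBS1 (-0.71 ± 0.31, 0.251) did not pass. Without both TiO2-set chip arrays numbered 4 the 3 interactions were 1.90, 1.13 and 1.27, all past the threshold.

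**Figure D3:**
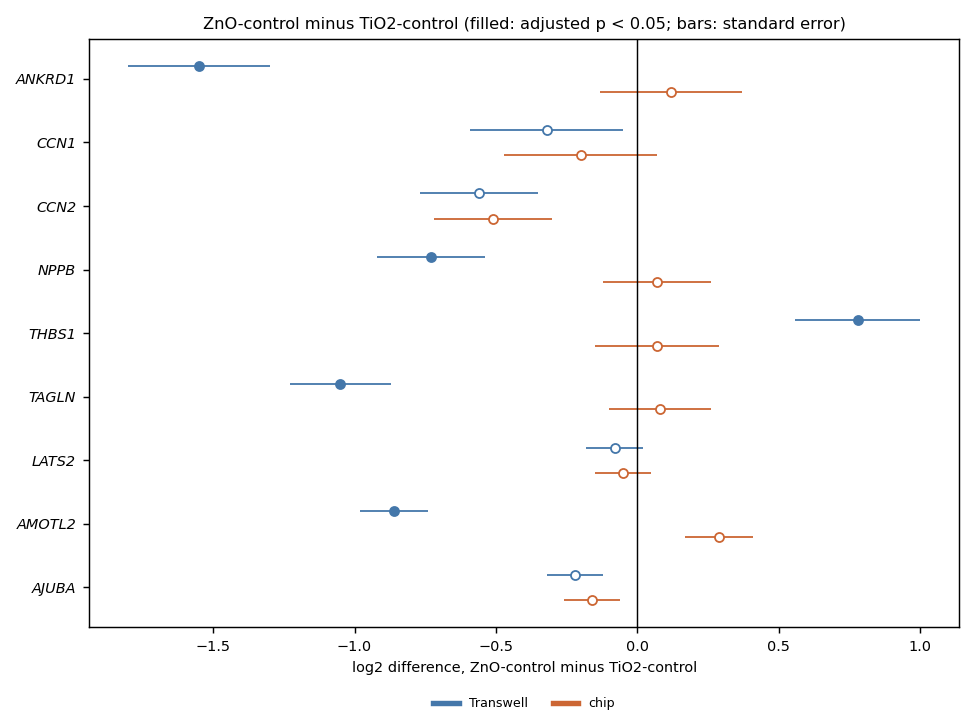
Log2 difference, ZnO-control minus TiO2-control medium (horizontal axis), of each gene on Transwell inserts (blue) and in the chip (orange), with bars of 1 standard error and filled points where the adjusted p was below 0.05. On inserts ANKRD1, TAGLN, AMOTL2 and NPPB lie to the left and THBS1 to the right, and in the chip no point is filled.

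Exposure to either nanomaterial for 6 h gave no call among the 9 genes in any of the 4 comparisons with the own control medium (limma). The background was equally low: 0% of all genes after TiO2 on inserts, 0% after TiO2 in the chip, 0% after ZnO on inserts and 0.272% after ZnO in the chip. At an unadjusted p below 0.05 there were 0, 2, 3 and 3 of the 9 genes in that order, beside 591, 1997, 835 and 2109 of all genes. The medians of the 9 genes were 0.02, 0.16, 0.27 and 0.35.

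All ZnO arrays lay above all control arrays for 3 of the 9 genes on inserts (ANKRD1, CCN2 and LATS2; background 2.31% of all genes) and for 1 in the chip (LATS2; 2.13%). On inserts it was 7.85, 8.08, 7.92 and 7.98 after ZnO against 7.56, 7.73, 7.64 and 7.69, a difference of 0.30 ± 0.10 (adjusted p = 1, limma). In the chip it was 8.84, 8.59, 8.43 and 8.46 after ZnO against 8.23, 8.14, 8.22 and 8.26, a difference of 0.37 ± 0.10 (adjusted p = 0.158). The intervals of 2 standard errors either side, 0.09 to 0.51 and 0.16 to 0.57, left out 0, but neither difference passed once all genes were accounted for. ANKRD1 had 0.68 ± 0.25 on inserts, where all ZnO arrays lay above all control arrays, and 0.12 ± 0.25 in the chip. CCN2 had 0.34 ± 0.21 on inserts, again without overlap, and 0.53 ± 0.21 in the chip (adjusted p = 0.375). THBS1 had 0.42 ± 0.22 and 0.66 ± 0.22 (0.272), and chip ZnO replicate 1 was high at 9.66 where the other 3 lay between 8.74 and 8.8. CCN1 had 0.21 ± 0.27 and 0.50 ± 0.27, TAGLN 0.09 ± 0.18 and 0.35 ± 0.18, NPPB 0.27 ± 0.19 and 0.03 ± 0.19, AJUBA 0.25 ± 0.10 and 0.14 ± 0.10, and AMOTL2 -0.06 ± 0.12 and -0.05 ± 0.12. Chip ZnO replicate 1 held the highest chip ZnO level of CCN1 (9.39), CCN2 (8.23), LATS2 (8.84) and THBS1. Without it the chip differences were 0.19 for CCN1, 0.35 for CCN2, 0.28 for LATS2 (adjusted p = 0.294), 0.44 for THBS1, 0.36 for ANKRD1 and 0.47 for TAGLN, and none of the 9 passed, beside 74 of all genes.

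**Figure D4:**
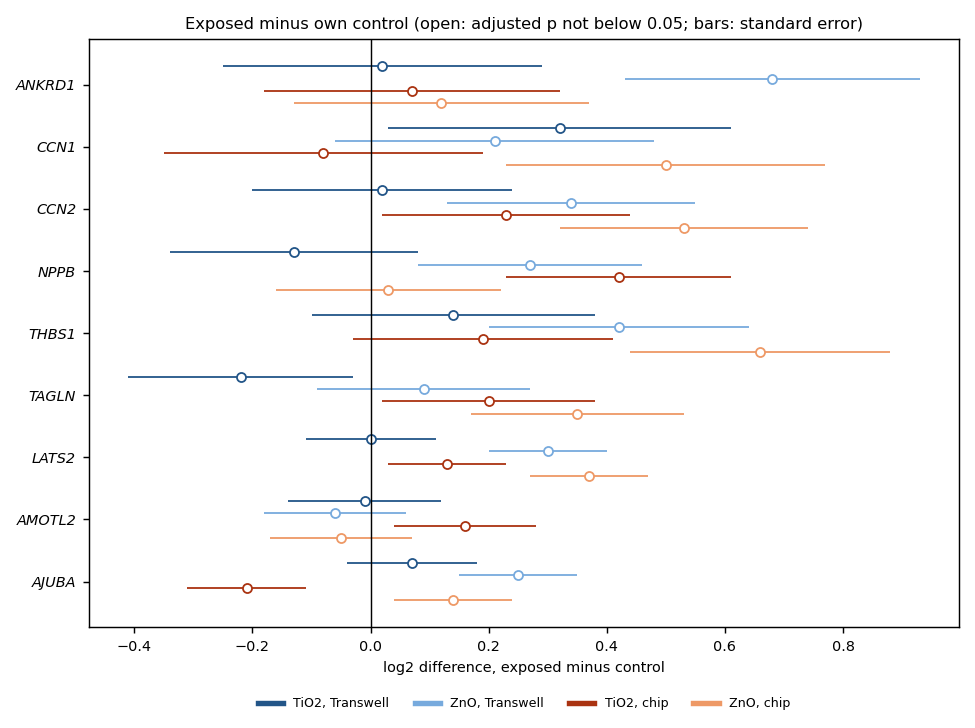
Log2 difference, exposed minus own control medium (horizontal axis), of each gene for both nanomaterials in both systems, with bars of 1 standard error; every point is open because no adjusted p was below 0.05. The ZnO differences of LATS2 lie at 0.30 and 0.37 and that of ANKRD1 on inserts at 0.68.

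After TiO2 on inserts the 9 differences ran from -0.22 ± 0.19 (TAGLN) to 0.32 ± 0.29 (CCN1). In the chip NPPB had 0.42 ± 0.19 (adjusted p = 0.538, limma) and AJUBA -0.21 ± 0.10 (0.556), with overlapping arrays in both. Without both TiO2-set chip arrays numbered 4 these became 0.49 and -0.19, TAGLN went from 0.20 to 0.38 and THBS1 from 0.19 to 0.08, and again none of the 9 passed. The responses of chip and inserts did not differ past the threshold for any of the 9 genes, for TiO2 (background 0%) or ZnO (0.00447%), with 0 of the 9 at an unadjusted p below 0.05 in both, beside 1215 and 1345 of all genes. The intervals were wide: the difference in ANKRD1 response to ZnO was -0.56 with 2 standard errors either side reaching from -1.26 to 0.14 (-0.32 without chip ZnO replicate 1), and that in NPPB response to TiO2 was 0.55, from -0.02 to 1.12.

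YAP1 did not pass the test between systems. Its group means ran from 9.59 to 9.83, and chip minus Transwell in control media was 0.06 ± 0.07 (adjusted p = 0.582, limma). WWTR1, which encodes TAZ, was lower in the chip in control media by -0.38 ± 0.1 (0.0032). It did not pass in TiO2-control medium alone (-0.36, adjusted p = 0.0624, limma), after TiO2 (-0.13, 0.638) or after ZnO (0.17, 0.441). Among 10 genes for YAP, TAZ, the TEAD factors and the VGLL cofactors 5 were higher and 2 lower, with a median of 0.26, where 14.6% of all genes were higher and 18.9% lower. VGLL1 (1.51 ± 0.14) and VGLL3 (0.95 ± 0.1), whose proteins bind TEAD factors in place of YAP, were higher, and so were TEAD1 (0.46 ± 0.08) and TEAD3 (0.45 ± 0.1). In TiO2-control medium alone 2 of the 10 were higher and none lower (all genes 9.42% and 13.5%). Without both TiO2-set chip arrays numbered 4, 0 were higher and 2 lower there, beside 5286 of all genes called in either direction. In ZnO-control medium 5 were higher and 1 lower (all genes 12.3% and 14.9%).

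A further 17 genes of a YAP and TAZ target signature, listed without the 9, held 9 higher and none lower (all genes 14.6% and 18.9%), with a median of 0.24. TGFB2, a ligand of the TGF-beta family, differed by 2.34 ± 0.21 and lay below all array medians in every Transwell group. GADD45A, a stress-induced growth regulator, differed by 1.80 ± 0.12, MYOF, a membrane repair protein, by 1.19 ± 0.1, and CRIM1, a membrane protein that binds growth factors, by 0.61 ± 0.08. The other 8 did not pass. Of 17 Hippo kinases, adaptors and upstream regulators 5 were higher and 4 lower, with a median of 0.05, beside 14.6% higher and 18.9% lower over all genes, so that the share of lower members was near the background. AMOT, the angiomotin that AMOTL2 resembles, was lower by -0.86 ± 0.09 and TAOK2, a kinase upstream of the cascade, by -0.62 ± 0.11. WWC1, the scaffold also called KIBRA, was higher by 0.42 ± 0.08 and the kinase MAP4K4 by 0.52 ± 0.11.

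Of 15 measured actin cytoskeleton genes that SRF and MRTF control, 11 were higher in the chip and none lower (all genes 14.6% and 18.9%), with a median of 0.66. FHL2, a LIM-domain cofactor, differed by 2.10 ± 0.1, the focal adhesion genes ZYX (zyxin) and VCL (vinculin) by 1.04 ± 0.09 and 0.74 ± 0.08, and CNN2 (calponin) by 0.61 ± 0.06. The other 4 did not pass. These counts stayed at 11 and 0 for the actin genes, 9 and 0 for the signature, 5 and 4 for the Hippo list and 5 and 2 for the YAP and TEAD list without both TiO2-set chip arrays numbered 4. By single medium, also without both, the actin genes held 6 higher and 1 lower in TiO2-control medium but 12 and 0 in ZnO-control medium. The signature held 6 and 2 but 9 and 0 in these media. Of all genes, 5286 and 6426 were called in either direction there. Averaged over both control media with all arrays, 1 of 10 measured paralogs of the 9 genes was higher, namely NPPC (0.46, adjusted p = 0.029, limma). NPPC lay below all array medians in every group and did not pass without both TiO2-set chip arrays numbered 4 (0.43, 0.0589). CCN4 (-0.31), CCN5 (0.19) and THBS2 (-0.16) did not pass. In each group 9 of the 10 paralogs lay below all array medians, so the lack of calls says little about them.

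**Figure D5:**
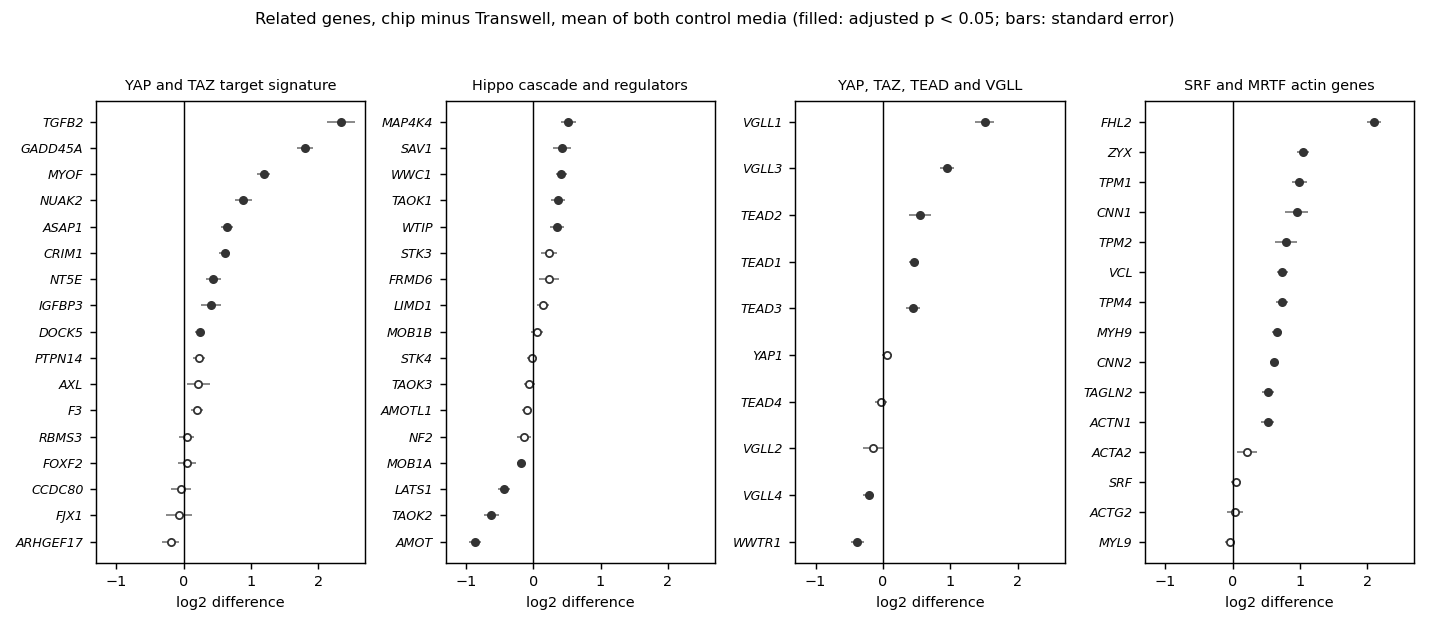
Log2 difference, chip minus Transwell averaged over both control media (horizontal axis), of every measured gene of 4 related lists, with bars of 1 standard error and filled points where the adjusted p was below 0.05. All filled points of the target signature and of the actin genes lie above 0, whereas the Hippo list holds filled points on both sides.

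The difference between control media on inserts extended to the TEAD and actin lists in part. In ZnO-control medium TEAD1 (-0.54 ± 0.11), TEAD3 (-0.49 ± 0.14), VGLL1 (-0.98 ± 0.21) and VGLL3 (-0.51 ± 0.15) were lower, 4 of 10, and of the 15 actin genes 5 were lower, against 3.76% of all genes, VCL (-0.82 ± 0.11), ZYX (-0.47 ± 0.13) and CNN2 (-0.45 ± 0.09) among them. None of the 17 signature genes and none of the 17 Hippo genes passed there, and in the chip no gene of these 4 lists did (limma). The interaction passed for VGLL1 (1.88 ± 0.29), VGLL3 (0.99 ± 0.21), TEAD3 (0.77 ± 0.2) and TEAD1 (0.54 ± 0.15), and for VCL (0.90 ± 0.16), ZYX (0.77 ± 0.18) and CNN2 (0.51 ± 0.13). Without both TiO2-set chip arrays numbered 4, 1 gene each of the signature, Hippo and TEAD lists passed as higher in ZnO-control medium in the chip. On inserts 1 signature gene and 6 actin genes passed as lower. Of all genes, 388 in the chip and 1860 on inserts were then called in either direction, against 13 in the chip with all arrays. The insert arrays were the same in both fits, and there the differences of ARHGEF17 (-0.49) and FHL2 (-0.43) did not change. No gene of these lists passed in any exposure comparison with all arrays. The tropomyosin gene TPM1 of the actin list passed as lower after TiO2 in the chip without both TiO2-set chip arrays numbered 4 (-0.86, adjusted p = 0.0183, against -0.58 and 0.323 with all arrays), beside 73 of all genes. Without chip ZnO replicate 1 no gene of the 4 lists passed after ZnO.

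The spread between arrays of a group was wider in the chip for 8 of the 9 genes. The pooled SD was 0.2 on inserts and 0.53 in the chip for CCN1, 0.15 and 0.4 for CCN2, 0.21 and 0.41 for THBS1 and 0.17 and 0.33 for TAGLN. The median over all genes was 0.2 on inserts and 0.26 in the chip, and AMOTL2 went the other way with 0.19 and 0.14. The share of all genes with a wider spread in the chip is not given here. The chip SDs include the chip arrays that stood apart and are not given without them. Epithelial markers also differed between the systems in control media, where 14.6% of all genes were higher in the chip and 18.9% lower. KRT8 (0.91 ± 0.17), KRT18 (0.56 ± 0.08), KRT19 (0.66 ± 0.08) and KRT20 (0.96 ± 0.22) were higher and CDX2 (-0.74 ± 0.1), VIL1 (-0.75 ± 0.07) and CDH17 (-0.2 ± 0.06) lower, 4 and 3 of 10. After exposure KRT18, KRT19, CDX2 and VIL1 passed for both nanomaterials. KRT20 passed for TiO2 (1.57) but not for ZnO (0.23), and KRT8 and CDH17 passed for neither. These markers are named because they passed in control media, and their part in the results on the 9 genes was not tested. Of 3 measured immune markers in control media CD68 was higher (0.64 ± 0.1) and CD3E lower (-0.35 ± 0.13, adjusted p = 0.0446), beside the same shares of all genes. No endothelial marker of 3 passed. CD3E did not pass without both TiO2-set chip arrays numbered 4 (-0.34, 0.0647).

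The genes with the most similar pattern were found by the root mean square difference of the 8 group means, after centring each gene on its own mean. For ANKRD1, whose own deviation by that measure was 1.46, they were SNAI1, a repressor of epithelial genes (0.29), CYP3A5, a drug-oxidising enzyme (0.3), and FBXO32, a ubiquitin ligase subunit (0.32). For CCN1 (own deviation 1.29) they were PHLDA2 (0.14), the row naming MIR21 (0.19) and DEPP1 (0.2). For NPPB (1.13) they were TM4SF1 (0.14), TNFRSF12A, the receptor of the cytokine TWEAK (0.15), and RNF39 (0.15), and for CCN2 (0.54) SGMS2 (0.12), TENT5B (0.12) and DUSP8 (0.15). All share the arrays and the high chip level, and the likeness is a description over 8 groups.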

How the data were processed

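Total RNA of 31 Caco-2 samples (100 ng each) was hybridised to Affymetrix whole-transcript arrays. The deposited values are on the log2 scale, and RMA is the tool named for them, per the submitters' processing notes. Neither a version of RMA nor the annotation or genome build behind the array is given in the sources used here. RMA quantile-normalises arrays, so a shift common to all genes would not be seen. The table held 53617 probe sets. Of these, 23871 named 1 gene, 1842 named several and 27904 none, and only the first kind was used, with symbols updated through RefSeq (22569 rows matched). The brightest row per gene was kept, which left 22395 genes.

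Groups came from the titles. With limma 3.58.1 (R 4.3.3) all 8 groups were fitted together, each with its own mean (23 residual degrees of freedom). Each gene had 1 variance over all 8 groups. For a gene that spread more in the chip, such as CCN1 (pooled SD 0.2 on inserts, 0.53 in the chip), SEs may be too wide on inserts. In the chip they may be too narrow. P-values were adjusted by Benjamini-Hochberg over all genes within each comparison, with a threshold of 0.05. The fit was checked on simulated data. Alternatives were an intensity trend, a robust prior, array weights, only the compared groups and only genes above the median level. Others were other row rules, median centring, a replicate block, and leaving out each array or both TiO2-set chip arrays numbered 4. Those chip arrays stood apart on a component of these same data, so their omission was not blind to the values. Recounting the related lists without arrays that stood apart and fits within 1 culture system were chosen after seeing the data. Promoter windows came from RefSeq on GRCh38.p14. The number of arrays limits the precision.

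The 9 genes, the related lists and the tests were chosen with earlier results of these data known. Named genes are the 9, YAP1, WWTR1, up to 4 genes per list with the smallest p between systems in control media, and the 3 genes nearest in pattern to ANKRD1, CCN1, CCN2 and NPPB; keratins and other epithelial markers that passed were named after their values were seen.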

Additional observations from a re-analysis of the deposited data

Results flagged for a closer look

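In 5 of 63 sets of 4 arrays of 1 gene, 1 array lay far from the other 3 by Dixon's criterion, where chance gives about 5%. These were CCN1 in Transwell ZnO-control replicate 3 at 5.08, below the others at 5.40 to 5.44, and CCN2 in chip TiO2 replicate 2 at 8.44, above 7.65 to 7.75. NPPB in chip TiO2-control replicate 2 stood at 6.20, below 6.94 to 7.0. THBS1 stood at 9.14 in chip TiO2 replicate 4, an array that stood apart, above 8.17 to 8.32, and at 9.66 in chip ZnO replicate 1, another such array, above 8.74 to 8.80.

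The chip minus Transwell difference was larger in ZnO-control than in TiO2-control medium for 3 genes by an interaction term (limma): ANKRD1 by 1.68 (adjusted p = 0.00836), AMOTL2 by 1.14 (0.000496) and TAGLN by 1.13 (0.014).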

How the results depend on the processing

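Of 126 differences computed for the 9 genes over 14 comparisons, 51 passed the threshold, and 45 of those passed under every setting run. Each of the 9 genes had 1 row, so the other row rules could not change its log2 differences, and passing them adds little. None of the 51 changed sign. Of the differences that did not pass, 25 changed sign under some setting and 1 passed under some (CCN2 between control media on inserts). The calls that were lost without single arrays are those of TAGLN, THBS1, AJUBA and NPPB named in the report. With only the groups compared, the lost calls between systems were TAGLN in TiO2-control medium (adjusted p = 0.0536), AJUBA in ZnO-control medium (0.108) and AJUBA after ZnO (0.0505); the cause was not tested. Leaving out 1 array at a time, the number of the 9 genes called between control media on inserts ran from 3 to 5, with 3 without Transwell ZnO-control replicate 3.

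Arrays with the same replicate number did not deviate together (correlations from -0.232 to 0.175), so the numbers were not taken as pairs. With a replicate block the counts of called genes were 9 between systems averaged over control media, 8, 9, 8 and 9 in the single media (TiO2-control, ZnO-control, TiO2 and ZnO), 0 in every exposure comparison, 5 and 0 between control media on inserts and in the chip, and 3 for their interaction, the same counts as without it. RMA values carry no detection call, so how far a level stood above background could not be given.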
